A study of Mus musculus with 8 samples.

Results

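The MHC class II genes were followed across 8 single-cell RNA-seq libraries from mouse colon. Their 7 members were H2-Aa, H2-Ab1, H2-Eb1, H2-DMa, H2-DMb1, Cd74 and Ciita, chosen by their symbols among the 32285 genes counted in every library. The libraries came from colon assembloids, colon organoids and colon tissue of male C57BL/6 mice that were 6 to 12 weeks old, and no mutant allele is named for any group. There were 2 libraries each of assembloid stroma (live cells negative for the epithelial surface protein EpCAM), assembloid epithelium, organoid epithelium and tissue epithelium. An organoid is a ball of epithelium grown from stem cells in a gel, and here it was kept in full medium with Wnt activators and the BMP inhibitor noggin. An assembloid joins such organoids with pre-cultured stromal cells of the colon in Matrigel, without Wnt surrogate, CHIR99021, R-spondin 1 and noggin. Tissue epithelium was sorted from freshly isolated crypts. No immune cells are described as added to the cultures beyond those within the primary stroma, which limits them as a model of antigen presentation.

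MHC class II molecules are pairs of an alpha and a beta chain that display peptides from outside the cell to CD4+ T cells. The pair is built around the invariant chain Cd74, proteases then cut Cd74 down to a short peptide, and the H2-DM heterodimer exchanges that peptide for an antigen. Ciita, the class II transactivator, does not bind DNA by itself and acts on RFX and NF-Y proteins bound at conserved X and Y boxes of these promoters. Dendritic cells, B cells and activated macrophages carry the full set, and intestinal epithelium can acquire it under interferon gamma. C57BL/6 mice do not make the I-E molecule because their alpha chain gene H2-Ea is defective, so that H2-Eb1 encodes a beta chain without its partner. H2-Ea was not analysed here.

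Of the 7 genes, 5 lay within 197.1 kb on mouse chromosome 17 (GRCm38, GENCODE M21). In order of position they were H2-DMa (ENSMUSG00000037649, chr17:34119541-34139101, plus strand), H2-DMb1 (ENSMUSG00000079547, chr17:34153072-34160230, plus), H2-Ab1 (ENSMUSG00000073421, chr17:34257689-34269419, plus), H2-Aa (ENSMUSG00000036594, chr17:34282744-34287823, minus) and H2-Eb1 (ENSMUSG00000060586, chr17:34305867-34316674, plus). Ciita (ENSMUSG00000022504) lay at chr16:10480059-10528418 on the plus strand. The antisense gene Gm20513 overlapped H2-Eb1 and Dexi overlapped Ciita, each on the other strand. The annotation gave 4 genes overlapping H2-DMa, of which 3 were in the files. Brd2, CR974462.4 and the pseudogene Gm20493 lay on the other strand and CR974462.3 on the same strand. Whether the counting used strand is not given in the sources used here, so that reads of such pairs may not be told apart, and strand would not separate a pair on the same strand.

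The promoters of H2-Aa and H2-Eb1 are shown because the X and Y boxes, through which Ciita is known to act, can be looked for in them. Each line gives the 150 bases before the start of the gene, 5′ to 3′, from RefSeq on GRCm38.p6, with capitals marking the Y box core (ATTGG, or CCAAT when read on the other strand) and the X box core (ACNGATG).
H2-Aa, chr17:34287824-34287973, minus strand: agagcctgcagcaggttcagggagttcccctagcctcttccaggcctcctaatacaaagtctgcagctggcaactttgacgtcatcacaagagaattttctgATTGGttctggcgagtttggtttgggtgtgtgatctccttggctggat
H2-Eb1, chr17:34305717-34305866, plus strand: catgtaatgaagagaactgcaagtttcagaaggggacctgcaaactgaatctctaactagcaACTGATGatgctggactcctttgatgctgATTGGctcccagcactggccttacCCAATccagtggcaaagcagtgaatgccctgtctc
In H2-Eb1 the X core stood 88 bases before the start, with a Y core downstream of it at 59 bases. In H2-Aa the Y core stood 48 bases before the start, and no whole X core lay in the 150 bases shown. H2-DMb1 held an X core and a Y core 91 and 61 bases before its RefSeq start, but 119 of these 150 bases lie inside the gene as GENCODE draws it, and they are not shown. Over the 300 bases of each RefSeq promoter, searched on both strands, H2-Aa, H2-Eb1 and H2-DMb1 each held both cores. Of 32851 promoters of that length, 37.4% held the Y core, 9.85% the X core and 3.65% both. H2-DMa had 2 promoter entries, of which 1 held the Y core and 0 the X core. A match describes letters in a window and is not a measured binding site.

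Each library held between 99133978 and 191255856 UMIs, which are counted transcript molecules. Cells were kept from 500 detected genes upward if mitochondrial UMIs made up no more than 10%, between 4310 and 29410 a library, and each was placed in a class when at least 80% of its UMIs over 7 lists of cell type markers came from 1 list. The epithelial gate took 25529 and 6762 cells in the assembloid epithelium libraries, 4868 and 7847 cells of organoids and 4668 and 4297 cells of tissue. All 11 epithelial markers were found in each, though the gate itself selects on this list. The stroma libraries gave 7663 and 8515 fibroblasts, and the assembloid epithelium libraries also held 491 and 415 fibroblasts and 144 and 165 macrophages. Assembloid epithelium library 1 was shallow, with a median of 3468 UMIs in a kept cell against 13260.5 in library 2, and the organoid libraries differed likewise (35219 and 6738.5). Kept cells of different libraries shared 694 of 76406 barcodes. Levels below are CPM, the UMIs of a gene in every 1000000 UMIs, not scaled further, of the summed cells of a class in a library. Folds are log2 values from edgeR's quasi-likelihood test on these sums over the 6 epithelial libraries, which adds a scaling for composition, with Benjamini-Hochberg adjusted p over all 19160 genes tested. The UMI counts are 3′ tags, 1 for each captured molecule, and do not grow with transcript length. Fewer expressing cells and less RNA in each cell cannot be told apart in such sums, and intervals and floors cover counting error only. Replicates were described as biological, 2 in each group. Set against counting error, they differed by a chi-square per gene of 279 in assembloid epithelium, 372 in organoids and 22.4 in tissue. That value also grows with the number of UMIs. The fit shares its spread over these groups, so its SE and adjusted p do not follow the spread of each group.

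Between assembloids and tissue, the class II genes of the epithelium changed in both directions: H2-Ab1 and Cd74 were higher in assembloids, H2-DMa and H2-DMb1 were lower, and H2-Eb1 and Ciita did not pass the test. Between organoids and tissue, 5 of the 6 genes tested were lower in organoids. Between organoids and assembloids, H2-Ab1, Cd74 and Ciita were lower in organoids and the other 3 did not pass. H2-Aa had too few UMIs to be tested. These counts stand against large backgrounds, since 49.7% of all genes were called between assembloids and tissue (26.5% higher in assembloids, 23.2% lower), 47.1% between organoids and tissue (24.3% higher in organoids, 22.9% lower) and 52.8% between organoids and assembloids (24.4% higher in organoids, 28.5% lower). The median log2 fold over the 6 genes was -0.50, -2.09 and -1.93 in these contrasts, against 0.03, 0.06 and -0.01 over all genes. The 3 contrasts share their libraries and are not independent of each other.

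**Figure D1:**
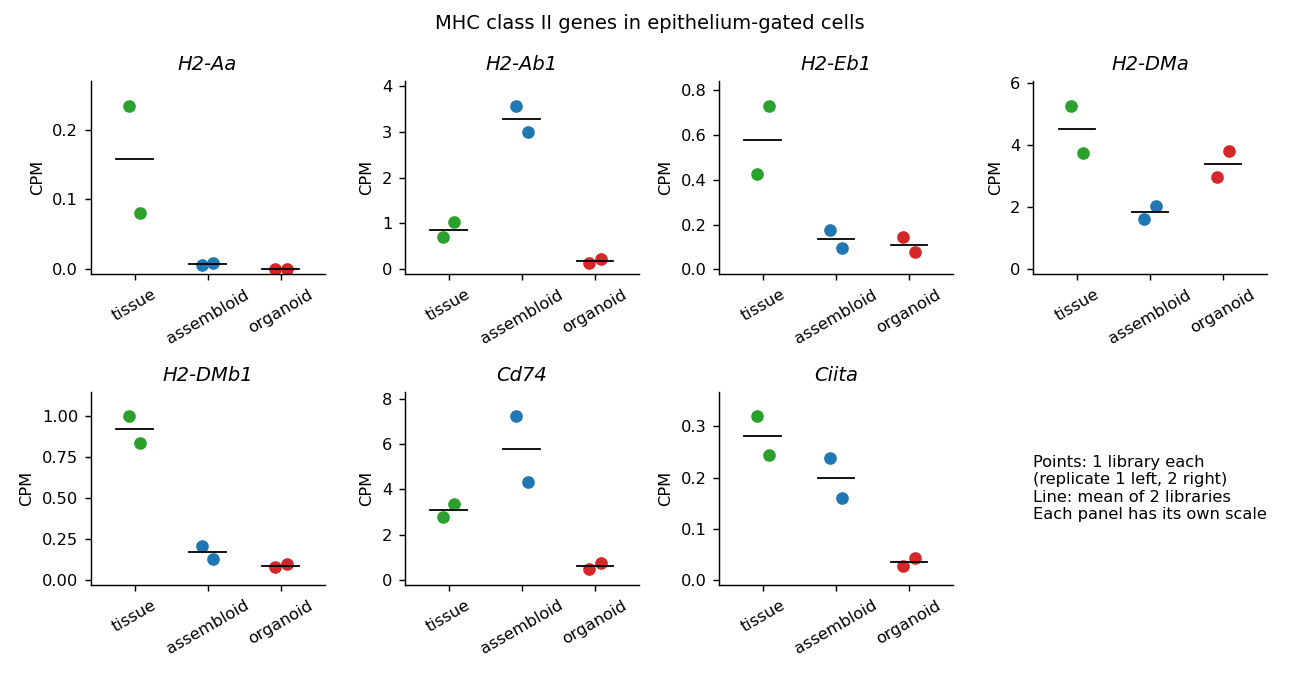
Level of each class II gene in the epithelium-gated cells of the 6 epithelial libraries, in CPM on a linear axis of its own for each gene, with a point for each library and a line at the mean of the 2. H2-Ab1 and Cd74 sit highest in the assembloid libraries, H2-DMb1 sits highest in tissue, and H2-Aa has 1 UMI in each assembloid library and 0 in the organoid libraries.

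The alpha chain gene H2-Aa was rarely detected in any epithelium. It gave 11 and 3 UMIs in the tissue libraries (0.234 and 0.0813 CPM), 1 UMI in each assembloid library (0.00628 and 0.00938 CPM) and 0 in both organoid libraries. At 0 counts the organoid libraries allow up to 0.0160 and 0.0323 CPM, or up to 0.0616% and 0.0382% of cells with a UMI, which does not limit the share of cells that express the gene. No epithelium-gated cell held more than 1 UMI of it.

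H2-Ab1, the beta chain that pairs with H2-Aa, was at 3.57 and 2.98 CPM in assembloid epithelium, 0.703 and 1.03 CPM in tissue and 0.139 and 0.216 CPM in organoids. No library of one group reached the range of another. The log2 fold was 2.33 ± 0.39 (SE, edgeR adjusted p = 0.00166) for assembloids over tissue, -2.09 ± 0.41 (adjusted p = 0.00371) for organoids against tissue and -4.41 ± 0.42 (adjusted p = 0.000145) for organoids against assembloids. The UMIs were spread thinly over cells. In the assembloid libraries 543 and 281 cells held at least 1 of the 568 and 318 UMIs, or 2.13% and 4.16% of cells, and no cell held more than 4. After every cell was thinned to 2000 UMIs, with shallower cells left out, the share of cells with a UMI was 0.866% and 0.499% in assembloids, 0.164% and 0.0724% in tissue and 0.0630% and 0.0650% in organoids.

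H2-Eb1, the beta chain left without a partner in this strain, was at 0.426 and 0.731 CPM in tissue epithelium, 0.176 and 0.0938 CPM in assembloids and 0.144 and 0.0754 CPM in organoids. Tissue lay above both cultures, whose libraries overlapped. The fold of organoids against tissue passed the test (-2.05 ± 0.65, SE, adjusted p = 0.0308), and that of assembloids against tissue did not (-1.64 ± 0.65, adjusted p = 0.0629). The organoid call was lost without any 1 of its 4 libraries (organoid library 1 or 2, adjusted p = 0.0611 or 0.183, tissue library 1 or 2, 0.0705 or 0.226). A single cell of assembloid library 1 held 10 of its 28 UMIs and none of the other 6 genes. The overlapping antisense gene Gm20513 gave 91 and 7 UMIs in assembloid epithelium and at most 2 in each other epithelial library. Its part in the H2-Eb1 counts was not tested.

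Cd74 (ENSMUSG00000024610, chr18:60803848-60812652, plus strand), the chaperone, was at 7.22 and 4.31 CPM in assembloid epithelium, 2.79 and 3.36 CPM in tissue and 0.496 and 0.754 CPM in organoids. The groups did not overlap. The log2 fold was 1.33 ± 0.36 (SE, adjusted p = 0.0157) for assembloids over tissue, -2.10 ± 0.38 (adjusted p = 0.00242) for organoids against tissue and -3.43 ± 0.39 (adjusted p = 0.000303) for organoids against assembloids. In assembloids and tissue most of these UMIs sat in a handful of cells. Cells with at least 5 Cd74 UMIs numbered 18 and 10 in the assembloid libraries and held 609 of 1150 and 343 of 459 UMIs (53.0% and 74.7%), with up to 267 in 1 cell of library 1 and up to 92 in library 2. In tissue 6 and 7 such cells held 80 of 131 and 94 of 124 UMIs (61.1% and 75.8%). Organoid library 1 had 1 such cell and library 2 had 0. Without the cells of 5 or more Cd74 UMIs the level was 3.40 and 1.09 CPM in assembloids, 1.09 and 0.816 CPM in tissue and 0.459 and 0.754 CPM in organoids, so that assembloid library 2 was no higher than tissue library 1. These cells were left out by the gene's own raw UMIs at unequal depths, a limit set after seeing the data, so these levels describe and carry no test.

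The assembloid call for Cd74 was less secure than that for H2-Ab1. It was lost without assembloid library 1 (0.80, adjusted p = 0.0769), without tissue library 1 (1.17, 0.115) and without tissue library 2 (1.46, 0.0592). It was also lost with at most 5% mitochondrial UMIs (0.25, adjusted p = 0.650) and with a gate at 60% of marker UMIs (0.77, 0.153). The H2-Ab1 call held without any 1 library (folds from 2.05 to 2.62).

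The Cd74-high epithelial cells were led by Ccl20 and Fabp5 in tissue and by Ddx27 in assembloids. In tissue, Ccl20, a chemokine that draws CCR6+ lymphocytes and dendritic cells to mucosal epithelium, exceeded its level in epithelial cells without Cd74 by 6.0 and 6.13 on the log2 scale of CPM + 20. Fabp5, a fatty acid carrier, exceeded it by 6.84 and 5.96, Ubd, a ubiquitin-like modifier induced by cytokines, by 4.68 and 4.13. Spib, a transcription factor of the M cell lineage, exceeded it by 2.26 and 4.65, with a UMI in 1 of 6 and 5 of 7 cells, and the M cell gene Gp2 by 0.82 and 0.36, with a UMI in 1 cell of each library. Ccl20 and Fabp5 each had a UMI in 3 of 6 and 6 of 7 of these tissue cells, and Ubd in 4 of 6 and 5 of 7. In assembloids the leading gene was the helicase gene Ddx27, at 2.49 and 3.40, and no high cell held a UMI of Ccl20 or Ubd. The 18 and 10 assembloid cells held 0 UMIs of any other class II gene, and the tissue cells held 7 and 1. Macrophage marker UMIs in them were 5 and 9 in assembloids and 4 and 1 in tissue. The high cells of tissue were much deeper than the epithelium of their libraries, with medians of 23369 and 26988 UMIs against 3560 and 3702, while those of assembloids had 11484 and 13209 against 3565 and 13961. These cells were picked by their own raw Cd74 counts, so the differences are a description without a test.

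H2-DMa and H2-DMb1, the chains of the peptide exchange factor, were both lower in assembloids than in tissue, unlike H2-Ab1. H2-DMa was at 5.26 and 3.74 CPM in tissue epithelium, 1.63 and 2.04 CPM in assembloids and 2.98 and 3.804 CPM in organoids. The assembloid libraries were the lowest, and tissue and organoids overlapped. Its fold was -0.91 ± 0.29 (SE, adjusted p = 0.0292) for assembloids against tissue, -0.19 ± 0.28 (95% interval -0.84 to 0.46, adjusted p = 0.614) for organoids against tissue and 0.72 ± 0.29 (adjusted p = 0.0619) for organoids against assembloids. The first of these calls was lost without assembloid library 1 (-0.83, adjusted p = 0.0753) and without tissue library 1 or 2 (-0.67 and -1.14, adjusted p = 0.241 and 0.0529). H2-DMb1 was at 1.00 and 0.840 CPM in tissue, 0.207 and 0.131 CPM in assembloids and 0.0800 and 0.0970 CPM in organoids. Its fold against tissue was -2.01 ± 0.51 (adjusted p = 0.0112) in assembloids and -3.14 ± 0.54 (adjusted p = 0.00181) in organoids. The difference between organoids and assembloids did not pass (-1.13, 95% interval -2.34 to 0.08, adjusted p = 0.102). The assembloid call was lost without tissue library 1 or 2 (adjusted p = 0.0932 and 0.0561). Brd2, which overlaps H2-DMa on the other strand, gave far more UMIs than H2-DMa, with 3872 and 2729 in tissue epithelium, 7745 and 5819 in assembloids and 14383 and 8188 in organoids. Its fold was -0.21 (adjusted p = 0.385) for assembloids against tissue, 0.30 (adjusted p = 0.218) for organoids against tissue and 0.51 (adjusted p = 0.0483) for organoids against assembloids. Assembloids were thus lowest in the fitted values of Brd2 too, and only the last of these differences passed the test. Its part in the H2-DMa counts was not tested.

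Ciita, the transactivator, was at 0.320 and 0.244 CPM in tissue epithelium, 0.239 and 0.160 CPM in assembloids and 0.0267 and 0.0431 CPM in organoids, which were the lowest. Its fold was -2.80 ± 0.63 (SE, adjusted p = 0.00696) for organoids against tissue and -2.72 ± 0.60 (adjusted p = 0.00584) for organoids against assembloids. Assembloids against tissue gave -0.08 (95% interval -1.32 to 1.16, adjusted p = 0.911). These are few molecules, with 15 and 9 UMIs in tissue, 38 and 17 in assembloids and 5 and 4 in organoids. A single cell held 16 of the 38 and another 13 of the 17 in the assembloid libraries. Both organoid calls were lost without organoid library 1 (adjusted p = 0.0740 and 0.0712), and that against tissue without tissue library 1 (0.0806).

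RNA of the stroma was measurable in the assembloid epithelium, as the marker lists fixed for the gate show. In epithelium-gated assembloid cells all 9 fibroblast markers and all 14 macrophage markers were found, at 182.9 and 39.6 CPM for the fibroblast list and 116.7 and 56.5 CPM for the macrophage list. In tissue the sums were 6.41 and 5.34 CPM for fibroblast and 8.37 and 7.29 CPM for macrophage markers, and in organoids they were 0.592 and 0.959 CPM and 4.55 and 8.75 CPM. If every such marker UMI had brought class II UMIs at the ratio seen in the fibroblasts and macrophages of the same library, 200.4 and 42.9 of the 568 and 318 H2-Ab1 UMIs would be matched, so that 2.83 and 7.41 times as many were counted. For H2-DMa the counts were 6.38 and 16.8 times the matched number, and for H2-DMb1 1.70 and 1.77 times. For Cd74 they were 4.0 and 10.2 times. Outside the cells with 5 or more Cd74 UMIs only 541 and 116 UMIs remained, 1.88 and 2.58 times the matched 287.3 and 44.9. These ratios are those of whole gated cells, and whether stromal RNA in epithelial cells keeps them was not tested. For Cd86 both ratios together matched 535.4 and 160.8 UMIs against 242 and 69 counted. The matched numbers therefore do not divide the counts by source. Without every epithelial cell that held a fibroblast or macrophage marker UMI, 15435 and 3998 of them in assembloids, the assembloid fold over tissue was 2.08 for H2-Ab1 (adjusted p = 0.00346), 1.55 for Cd74 (adjusted p = 0.00450) and -2.36 for H2-DMb1 (adjusted p = 0.00848). The H2-DMa call was lost (-0.78, adjusted p = 0.0662), as was that for Ciita between organoids and assembloids (-1.82, adjusted p = 0.0775). The same rule left out only 541 and 403 cells of tissue, so the cells that remained were picked unequally between the groups. A cell without a marker UMI may still hold RNA of the stroma, and the source of the remaining UMIs was not tested. No matched number was computed for tissue. Its 3 and 2 macrophage-gated cells held 358 and 146 H2-Eb1 UMIs, against 20 and 27 in the tissue epithelium. What RNA from such cells added to the tissue epithelium levels was not tested.

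**Figure D2:**
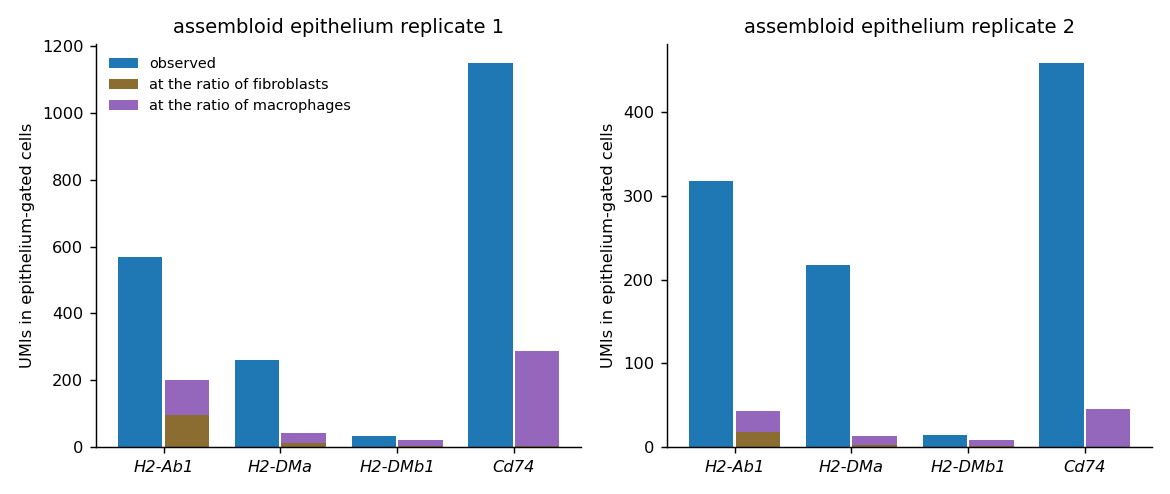
UMIs of H2-Ab1, H2-DMa, H2-DMb1 and Cd74 counted in the epithelium-gated cells of the 2 assembloid libraries, as bars from 0, beside the stacked number that the fibroblast and macrophage marker UMIs in the same cells would bring at the ratios of those classes. Counted H2-Ab1 UMIs are 568 and 318 against 200.4 and 42.9, and counted H2-DMb1 UMIs are 33 and 14 against 19.4 and 7.9.

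Without the gate these values changed. With every kept cell in the sums and no gate, the assembloid difference from tissue was 0.23 for H2-Ab1 (adjusted p = 0.599) and -0.71 for Cd74 (adjusted p = 0.0681). H2-Ab1 stood at 6.24 and 8.42 CPM in the sums without a gate of assembloid epithelium and at 10.5 and 4.95 CPM in those of tissue. Cd74 stood at 10.4 and 8.85 CPM against 25.1 and 14.5 CPM. The assembloid sums then contain fibroblasts, macrophages and mixed cells, and those of tissue contain the few cells described next.

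The full set of chains was found together in only 7 kept cells of the 8 libraries. These were 4 cells of tissue library 1, 2 of tissue library 2 and 1 of assembloid epithelium library 2. Of the 6 tissue cells, 5 passed the macrophage gate and 1 passed none, since it also held 60 UMIs of epithelial markers. The first held 166 UMIs of H2-Aa, 189 of H2-Ab1, 167 of H2-Eb1, 321 of Cd74, 15 of H2-DMa, 3 of H2-DMb1 and 1 of Ciita. The lowest H2-Aa count among the 6 was 52, beside 73 of H2-Ab1, 63 of H2-Eb1 and 170 of Cd74. In these 6 cells the 3 chain genes thus stood at counts of like size, which no epithelial cell showed. They held between 36 and 573 UMIs of the macrophage list, and 437 of these 573 were Lyz2. The complement genes C1qa and C1qb, markers of tissue macrophages, were at 0 in 5 and in 4 of the 6 cells. Of the dendritic cell genes, Flt3, Xcr1, Ccr7 and Siglech were at 0 in all 6, Clec9a and Zbtb46 reached at most 2 UMIs, Itgax was at 4, 2, 1 and 1 UMIs in 4 cells, and Cd209a, a lectin of some dendritic cells, was at 24, 13, 5 and 4 UMIs in 4 of them and 0 in the other 2. B cell markers were at 0 in all 6. These cells were given no name beyond the gate.

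Those 6 cells, among 4692 and 4310 kept in the libraries, held 97.5% and 97.6% of the H2-Aa UMIs in all kept cells of tissue libraries 1 and 2, 93.3% and 79.2% of H2-Ab1, 95.3% and 84.4% of H2-Eb1 and 88.9% and 76.9% of Cd74. They held less of the exchange factor, at 18.6% and 7.95% of H2-DMa and 42.7% and 31.1% of H2-DMb1, and 28.6% and 10.0% of Ciita. The single cell of assembloid library 2 held 6, 11 and 2 UMIs of H2-Aa, H2-Ab1 and H2-Eb1 and 12 of Cd74.

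**Figure D3:**
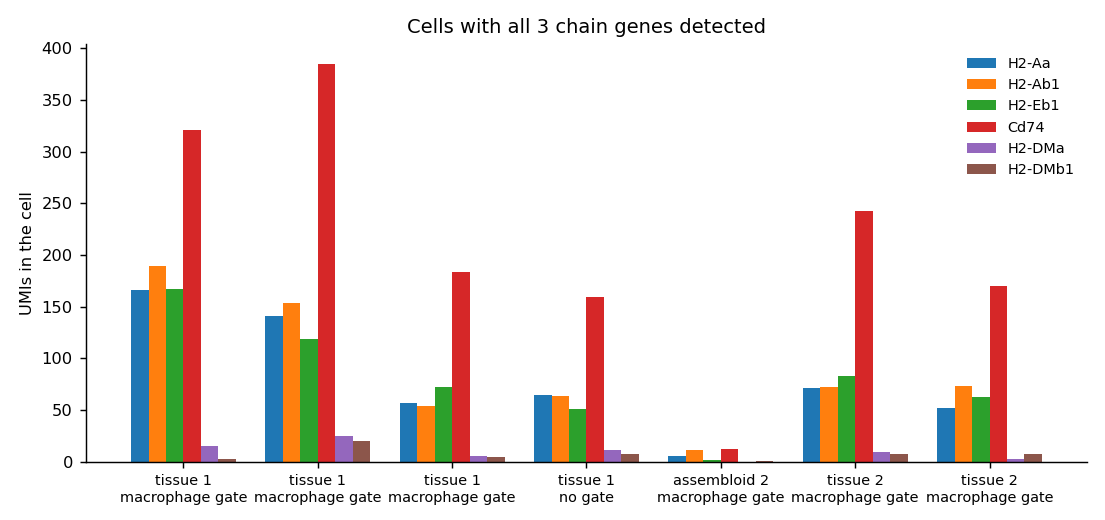
UMIs of the class II genes in the 7 cells that held all 3 chain genes, a group of bars for each cell on a linear axis from 0, without Ciita. The 6 tissue cells hold 52 to 166 UMIs of H2-Aa each, and the assembloid cell holds 6.

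The macrophages of assembloids carried H2-Ab1 and Cd74 with little H2-Aa. Cd74 was at 292.8 and 181.9 CPM and found in 56.9% and 58.8% of macrophages, and H2-Ab1 was at 107.2 and 100.4 CPM in 38.2% and 55.8% of them. H2-DMa was at 28.6 and 43.2 CPM and H2-DMb1 at 17.6 and 26.9 CPM. H2-Aa gave 3 and 7 UMIs, of which 6 were in 1 cell, and H2-Eb1 gave 0 and 7. Ciita gave 0 in both libraries, which allows up to 2.77 and 1.32 CPM, or 2.08% and 1.82% of cells with a UMI, and sets no limit on the share that express it. Of the macrophages with H2-Ab1, 72.7% and 71.7% also held Cd74. All 14 macrophage markers were found in this class, but the gate selects on that list. All 14 were also found in the epithelium-gated cells of the same libraries. In the fibroblasts of the same libraries, which should lack it, Cd74 was found in 0.815% and 0.241% of cells, at median depths of 6674 and 11630 UMIs against 7281.5 and 12665 in macrophages. With 7 and 5 macrophage-gated cells in all of the stroma and tissue libraries, no comparison of this class between groups was made.

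Fibroblasts carried H2-Ab1 and the exchange factor but almost no Cd74. In the stroma libraries H2-Ab1 was at 19.96 and 8.27 CPM in 18.5% and 8.30% of fibroblasts, H2-DMa at 6.94 and 5.70 CPM and H2-DMb1 at 3.46 and 3.43 CPM. Cd74 was at 0.0906 and 0.0913 CPM, H2-Eb1 at 0.362 and 0.365 CPM, and H2-Aa gave 1 UMI in each library. The fibroblasts that came along in the assembloid epithelium libraries held H2-Ab1 at 45.7 and 57.6 CPM, in 23.4% and 35.2% of cells. Cd74 was there at 1.12 and 0.193 CPM. Stroma and epithelium libraries were counted by different versions of Cell Ranger, and no test was run between them. The 474 and 50 epithelium-gated cells of the stroma libraries held H2-Ab1 at 19.8 and 8.95 CPM, close to the fibroblasts of the same library, and 472 of the 474 and all 50 held a fibroblast marker UMI. Per 1000 fibroblast marker UMIs these epithelium-gated cells held 51.6 and 15.2 H2-Ab1 UMIs, against 2.33 and 0.690 in the fibroblasts of the same libraries.

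**Figure D4:**
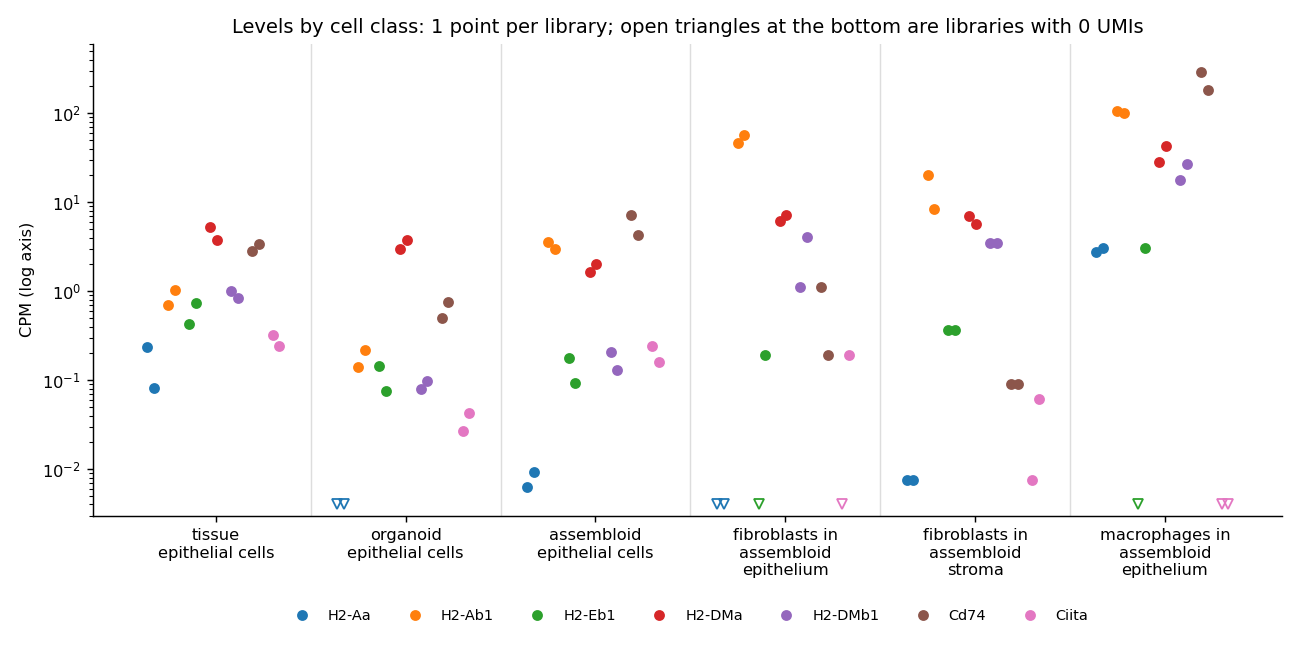
Level of each class II gene in epithelium-gated, fibroblast and macrophage cells of each library group, in CPM on a log axis, with a point for each library and open triangles for libraries with 0 UMIs. Cd74 is at 292.8 and 181.9 CPM in assembloid macrophages and at most 1.12 CPM in fibroblasts, while H2-Ab1 is found in both classes.

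Within the stroma libraries H2-Ab1 was concentrated in cells with high hypoxia genes. The 12 genes of the hypoxia list were chosen after the H2-Ab1-rich cells of these same libraries had been seen, so the values describe and do not test. In fibroblasts the top 25% of cells by the list's share of UMIs held H2-Ab1 at 71.6 and 27.7 CPM, against 6.08 and 2.45 CPM in the rest, and held 76.0% and 77.2% of all its UMIs. H2-DMa differed far less between the top 25% and the rest, by 1.59 and 1.42 times. In the epithelium-gated cells of stroma library 1 the values were 82.9 and 3.05 CPM. The fibroblasts with at least 3 H2-Ab1 UMIs, 279 and 87 in number, were led by Ero1l, an oxidase of the endoplasmic reticulum, with a UMI in 99.3% and 98.9% of these cells. Among fibroblasts with no H2-Ab1 UMI the shares were 60.8% and 44.5%. Its level was 793 and 672 CPM in the former and 91.6 and 58.2 CPM in the latter. In the assembloid epithelium libraries the H2-Ab1 ratio of the top 25% to the rest was 1.30 and 1.41 in fibroblasts, 1.36 and 1.26 in macrophages and 1.39 and 1.44 in epithelium. The fibroblasts outside the top 25% there held the hypoxia list at 3122 and 2862 CPM and H2-Ab1 at 42.6 and 52.8 CPM. In stroma fibroblasts the list stood at 3322 and 2101 CPM in the top 25% and at 656 and 436 CPM in the rest. The stroma libraries were counted by another version of Cell Ranger, and a link between these list levels and H2-Ab1 was not tested. The ratio was 1.32 and 1.41 in tissue epithelium, and 4.68 and 3.73 in organoid epithelium, where it rests on 14 against 12 and 8 against 12 UMIs. These groups are ranges of a score and not cell types, with 373 and 592 stroma fibroblasts within 10% of the limit.

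**Figure D5:**
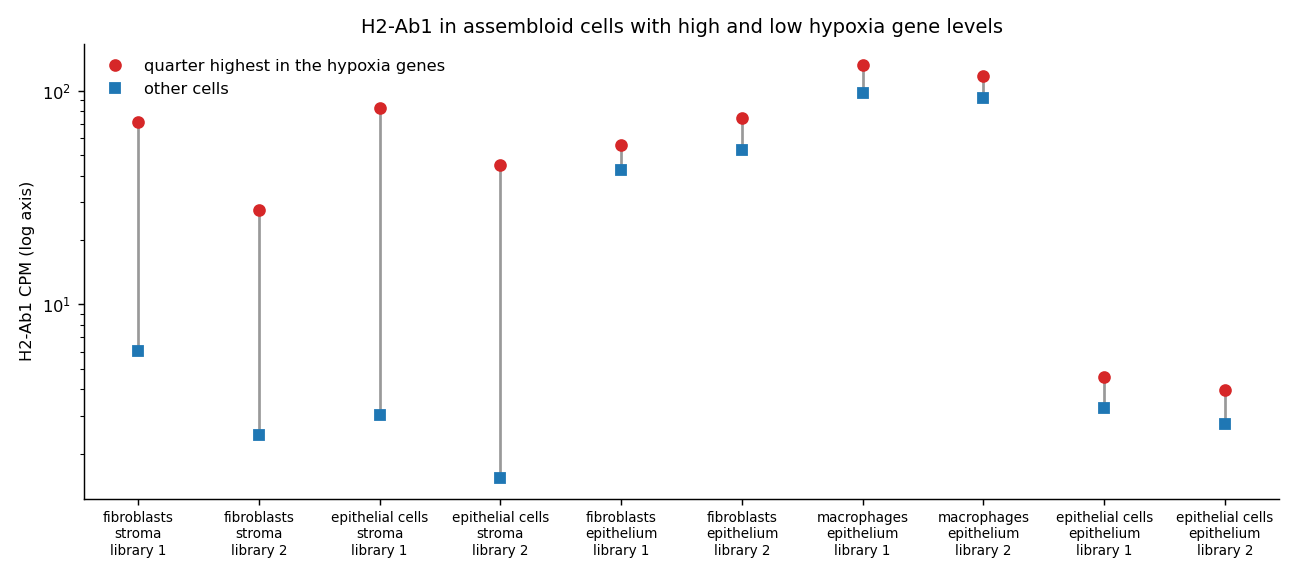
H2-Ab1 level in the top 25% of cells for the hypoxia list and in the remaining cells of the same class and library, in CPM on a log axis, joined by a line for each library. Stroma fibroblasts show 71.6 against 6.08 and 27.7 against 2.45 CPM, and the assembloid epithelium libraries show ratios between 1.26 and 1.44.

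Of the peptide loading genes around the class II molecule, 6 could be tested in the epithelium. In assembloids against tissue 3 were higher and 1 lower, with a median log2 fold of 0.78 against 0.03 over all genes. Of all genes, 49.7% were called in this contrast, 26.5% higher and 23.2% lower. The lysosomal proteases Lgmn, Ctsl and Ctsd were higher by 1.64, 1.22 and 1.08 (adjusted p = 0.000538, 0.00465 and 0.00318). How many of their UMIs the fibroblast and macrophage marker UMIs in the same cells would match was not computed. Ctss, the cathepsin that makes the last cuts in Cd74, was lower, at 28.1 and 27.1 CPM in assembloids, 140.6 and 123.9 CPM in tissue and 7.74 and 7.17 CPM in organoids. Its fold was -1.86 ± 0.23 (SE, adjusted p = 0.000354) for assembloids against tissue and -3.90 ± 0.25 (adjusted p = 1.37e-05) for organoids against tissue. Macrophages of the assembloid libraries held it at 1101 and 751 CPM. Between organoids and assembloids 5 of the 6 were lower in organoids and 0 higher, where 28.5% of all genes were lower and 24.4% higher. Between organoids and tissue Lgmn was higher (0.95) and Ctss lower, and 47.1% of all genes were called.

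All 7 regulators of class II transcription were tested, and none was called lower in organoids against both tissue and assembloids, as Ciita was. With 4, 3 and 2 of the 7 called in the 3 contrasts, against 49.7%, 47.1% and 52.8% of all genes, the calls do not set these genes apart. In assembloids against tissue Rfxap and Nfyb were higher (1.21 and 0.74) and Rfxank and Nfyc lower (-0.76 and -1.06, adjusted p = 0.0194 and 0.00190). These are subunits of the RFX and NF-Y complexes that bind the X and Y boxes. In organoids against tissue Rfxap and Nfyb were higher (1.49 and 1.27) and Rfxank was lower (-1.07), and in organoids against assembloids Nfya and Nfyc were higher (0.83 and 1.16). The list medians were -0.15, 0.21 and 0.36, against 0.03, 0.06 and -0.01 over all genes.

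The 5 genes tested from the costimulation list were all higher in assembloid epithelium than in tissue. Their median log2 fold was 2.83 against 0.03 over all genes, of which 26.5% were called higher in this contrast. The listed genes encode surface proteins through which a presenting cell and a T cell signal to each other beside the class II contact. Cd40 is a receptor and the other 4 are ligands, of which Cd274 is known to inhibit T cells. Cd40 was at 1.47 and 1.58 CPM in assembloids and 0.0426 and 0.0271 CPM in tissue (adjusted p = 0.000166), and Cd86 was at 1.52 and 0.648 CPM against 0.0213 and 0.0542 CPM (adjusted p = 0.00129). The tissue values are 2 and 1 UMIs of Cd40 and 1 and 2 of Cd86, under the floor of 3 counts (0.0639 and 0.0813 CPM), so that the size of these folds is not fixed by the data and none is given. Cd80, Icosl and Cd274 were higher by 2.83, 1.78 and 1.28. All 5 were lower in organoids than in assembloids, as were 28.5% of all genes. Organoids exceeded tissue for Cd40, again over 2 and 1 tissue UMIs, and for Icosl (0.72), where 24.3% of all genes were higher. The macrophage marker UMIs in the assembloid epithelium would bring 534.8 and 160.7 Cd86 UMIs at the macrophage ratio, against 242 and 69 counted, so the Cd86 count lay below the number matched. For Cd40 the macrophage ratio gave 40.4 and 11.2 against 234 and 168 counted, and for Icosl 6.3 and 1.0 against 787 and 616. The fibroblast and macrophage ratios together matched 125.9 and 31.7 of 220 and 85 Cd80 UMIs and 179.4 and 49.4 of 290 and 231 Cd274 UMIs, which in library 1 is more than remained unmatched.

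Genes of the interferon gamma route, the inducer of Ciita, showed 1 call of 9 tested between assembloids and tissue, where 49.7% of all genes were called. This was the kinase gene Jak2, higher in assembloids by 0.87 (adjusted p = 0.0106). In organoids Jak2 was lower than in tissue (-0.76), and Ifngr1, Jak2 and Nlrc5 were lower than in assembloids (-0.86, -1.63 and -1.95). Of all genes, 47.1% and 52.8% were called in these 2 contrasts. The list medians were 0.01, -0.40 and -0.34. Ifng itself gave 1 UMI in each tissue library and 0 in the assembloid and organoid epithelium.

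The MHC class I genes, read by CD8+ T cells and made through a separate loading route, showed more lower than higher calls in the cultures against tissue. Of 15 tested, 7 were lower, 1 higher and 7 not called in assembloids against tissue, with a median of -0.64 against 0.03 over all genes. The counts were again 7, 1 and 7 in organoids, with a median of -0.52 against 0.06. The share called was near the 49.7% and 47.1% of all genes called in these contrasts, of which 23.2% and 22.9% were lower. The immunoproteasome genes Psmb8 and Psmb9, which lie beside the class II genes, fell by 2.70 and 2.07 in assembloids, and the peptide transporter gene Tap2 fell by 2.10 (adjusted p = 0.000140, 0.00160 and 0.000501). H2-T23 fell by 1.46 in assembloids, and H2-Q7 was the gene that was higher, by 1.74. Between organoids and assembloids 3 were higher, 2 lower and 10 not called, where 52.8% of all genes were called (24.4% higher, 28.5% lower).

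By the rule for likeness, the genes nearest to the summed 7 genes over the 6 epithelial libraries were Gm4876, Dedd2, Guca1a, Fgfr2 and Plod1. Their centred log2(CPM + 1) profiles differed from that of the sum by a root mean square of 0.05, 0.10, 0.11, 0.11 and 0.12, among 10199 genes compared. The sum itself was 13.1 and 9.72 CPM in assembloids, 10.7 and 10.0 CPM in tissue and 3.87 and 4.99 CPM in organoids. Cd74 and H2-Ab1 made up most of it in assembloids, and H2-DMa most of it in organoids.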

How the data were processed

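Single-cell RNA was measured in 8 libraries made with the 10x Genomics 3′ v3 kit. The authors deposited raw UMI counts per gene and cell barcode without normalization. The submitters' processing notes name Cell Ranger 6 and mm10, while the file headers name Cell Ranger 6.0.1 (stroma) and 7.1.0 (epithelium). Whether introns were counted is not given in the sources used here. Total counts per library were 99133978 to 191255856.

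The cell filter that the study states for the stroma (500 detected genes or more, mitochondrial UMIs no more than 10%) was used in every library. It is not the study's filtered set of epithelial cells, which held more tissue and organoid cells and fewer assembloid cells than the 4692 and 4310, 4872 and 8034, and 29410 and 7722 kept here of 12137 and 16974, 5984 and 14536, and 32932 and 14012 barcodes. A class needed at least 3 markers of its list and 80% of the UMIs of all 7 lists. Mixed cells stayed ungated and no doublet caller was run. Classes under 50 cells in a library were not summarised as classes. UMIs were summed per library over epithelium-gated cells and tested with edgeR 4.0.16 (R 4.3.3, quasi-likelihood test, TMM, its filter on low counts), with the 3 epithelial groups in 1 fit and calls at an adjusted p of 0.05. Printed CPM are not TMM-scaled. Class levels, groups cut from a score and cells rich in a gene carry no test. Shares were thinned to 2000 UMIs a cell, and floors are 3 counts. The calculation was tested on simulated data.

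The members and gene lists were chosen with earlier results of these data known. All members were named, with list genes called in at least 1 contrast and the 5 genes of most similar profile with a mean of at least 5 CPM. Libraries with the same replicate number showed no shared deviations from their group means (correlations -0.02, 0.04 and -0.02), and the main fit used no pairing. With 2 libraries in each group, this cannot show whether such libraries came from the same mice. Alternatives were DESeq2 1.42.0, no filter on low counts, a replicate block, each library left out, other gates and other cell filters. Tables were made in Python 3.11.15 with pandas 2.3.3, scipy 1.17.1 and numpy 2.4.6.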

Additional observations from a re-analysis of the deposited data

Results flagged for a closer look

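Some class II genes differed in opposite directions within the epithelium of different groups. Cells were split at the top 25% of a list score (colonocyte, stem, cycling or goblet genes), and the level in that top group was compared with the other epithelial cells as a log2 ratio in each library. These groups are ranges of a score, and the differences between groups were not tested. The cases given were picked for their opposite signs from all genes, lists and pairs of groups with enough UMIs. Some such cases can arise by chance. Cd74 was lower in the colonocyte top group of assembloids (-1.04 and -2.5) and not in that of tissue (0.55 and 0.02), a difference of -2.05. In the stem top group it was higher in assembloids (0.22 and 2.37) and lower in tissue (-1.57 and -1.57), a difference of 2.87. In the cycling top group the assembloid ratios were 0.05 and 1.82 and the organoid ratios -0.19 and -1.13, a difference of 1.60. The few Cd74-rich cells described in the report enter these ratios.

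H2-Ab1 showed 0.23 and 0.12 in the colonocyte top group of assembloids and -0.99 and -1.34 in that of tissue, a difference of 1.34. In the stem top group the values were -0.17 and -0.29 in assembloids and 0.80 and 0.19 in tissue, a difference of -0.72. H2-DMa in the goblet top group was at -0.21 and -0.35 in assembloids and 0.10 and 0.12 in organoids, a difference of -0.39. The tissue values of H2-Ab1 rest on 33 and 38 UMIs in all, of which the colonocyte top group held 4 and 4 and the stem top group 10 and 8.

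Signals also lay outside the epithelial comparisons. In the tissue libraries 429 and 123 H2-Aa UMIs were found in the cells with all 3 chain genes, which stood outside the epithelial gate. In assembloid epithelium library 2, 1 barcode outside the cell filter, with 14.0% mitochondrial UMIs, held 15 H2-Eb1 UMIs and 0 of H2-Aa.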

How the results depend on the processing

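The number of genes called between assembloids and tissue was 9521 and ran from 5289 (without tissue library 1; 5629 without tissue library 2) to 10172 when a library was left out. Between organoids and tissue it was 9029 and ran from 5212 to 9698, with the lowest again without tissue library 1 and 5390 without tissue library 2, and between organoids and assembloids it was 10126 and ran from 7768 to 9776. A fit with the replicate block called 9394, 8878 and 9976. DESeq2 called 9324, 9065 and 9831. Of 303 values of the class II genes and alternatives 267 kept their direction and side of the threshold, 23 lost a call, 6 gained one and 7 changed sign. A further 36, from fits without cells rich in these genes' own UMIs, were left out of these counts, since such cells are removed by the counts then tested. Changes of sign were Cd74 between assembloids and tissue with no gate (-0.71), Ciita in the same contrast with a gate at 60% (0.02) and with a library left out (-0.51 to 0.24), H2-DMa between organoids and tissue (-0.40 to 0.07) and H2-Eb1 between organoids and assembloids (-1.19 to 0.26) with a library left out. None of the last 3 was called in the fit reported. Cd74 between assembloids and tissue lost its call with a gate at 60% (0.77) and with at most 5% mitochondrial UMIs (0.25). H2-Eb1 between assembloids and tissue gained a call with a gate at 60% (-2.63), and between organoids and tissue lost it under DESeq2 (-2.12). The causes were not tested. Of 118 class levels under other gates and filters, 112 stayed within 1.5 times and the farthest moved 1.94 times. Of 81 shares of cells with a UMI at other thinning depths or without thinning, 60 moved by more than the spread between libraries. The share with H2-Ab1 in assembloid epithelium, for example, was 0.381%, 0.683% and 1.38% at 1000, 2000 and 4000 UMIs per cell, so that such shares hold only at their stated depth.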
